A study of Homo sapiens with 9 samples.

Results

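The 46 genes described here encode proteins that carry a cell from G2 through mitosis: cyclins and CDK1, mitotic kinases, the spindle checkpoint, kinetochores, spindle motors, the cytokinesis machinery, regulators of anaphase, and 2 transcription factors of the programme. They were taken by symbol from a list of mitotic kinase, cyclin, kinetochore and spindle genes; the rule uses no measured value, though the list was drawn up with earlier results of these data known. All 46 were found among the 58347 gene rows of the count table, and all 46 passed the filter on low counts that left 23675 genes to test.

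RNA was sequenced from 9 libraries of K562, a human erythroleukaemia line that grows in suspension and expresses embryonic and fetal globins. All cells carried the same recruitment system, called K562-FIRE in the labels: dCas9 (a Cas9 that binds DNA without cutting) with a Blast marker, MS2-Fkbp with a Hygro marker, and SS18-Frb with a Puro marker. The labels give EF1a as the promoter of all 3 parts and prefix the dCas9 and SS18-Frb constructs with Lv. SS18 is a subunit of the BAF chromatin remodelling complex, and rapamycin joins Fkbp to Frb. Whether the line is 1 clone is not given in the sources used here. The groups were cells with an sgRNA to the HBG1 promoter treated with DMSO (n = 3) or 10 nM rapamycin (n = 3), and cells with a non-targeting sgRNA treated with rapamycin (n = 2, replicates 1 and 2) or DMSO (n = 1, replicate 2), all for 24 h. Nothing in the labels says that replicates came from separate cultures, so the p-values measure the spread between these libraries, which may be technical.

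Total counts ran from 19797409 to 31619671 per library, and the 46 genes together took 0.526% to 0.581% of them. Each of 6 erythroid markers (GATA1, TAL1, KLF1, LMO2, TFRC and HBZ) stood at 81.1 CPM (counts scaled to library size) or more in every library. The 18 markers of other cell types summed to 59.2 to 80.4 CPM, most of it EPCAM (36.9 to 50.01 CPM) and COL1A2 (3.01 to 24.8 CPM), and 11 of them, KRT5, MS4A1 and CD163 included, stayed under 1 CPM in every library. Replicate 1 of both HBG1 sgRNA groups stood apart from replicates 2 and 3: the chi-square statistic per gene was 15.4 to 17.1 against them, and 4.64 and 7.56 between replicates 2 and 3. For those of the 46 genes that passed with the replicate block, the blocked result is therefore also given without pair 1.

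Entry into mitosis follows activation of CDK1 by cyclins A and B, after CDC25 phosphatases remove inhibitory phosphates from it. The anaphase-promoting complex (APC/C) later degrades cyclin B and securin and so lets chromosomes separate, while the spindle checkpoint holds the APC/C back until kinetochores are attached. Most of these genes are transcribed periodically, from late S phase to mitosis, when FOXM1 and the B-MYB protein (gene MYBL2) with the MuvB complex act at promoters that DREAM represses in resting cells. Rapamycin inhibits mTORC1, a kinase complex that couples growth to nutrients, in any cell and with any guide, in addition to joining Fkbp to Frb. In bulk RNA, fewer cells in G2 or mitosis and less of a transcript per cell cannot be told apart.

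Promoters of this programme are known for 2 short elements: CCAAT boxes, bound by NF-Y, and the cell cycle genes homology region (CHR), whose common form reads TTTGAA and which MuvB binds. RefSeq promoter windows (GRCh38.p14), from 250 bases before to 50 after the annotated start, were given for 39 of the 46 genes, as 49 windows. Searched on both strands, TTTGAA was found for 26 of 39 genes (66.7%), against 18.2% of 27305 genes with a window. CCAAT was found for 31 of 39 genes (79.5%), against 39.7% of all genes. In the 49 windows, both motifs occurred together in 24 (49.0%), against 5.9% of all 35116 windows, and 44.9% held at least 2 CCAAT matches, against 10.8%. Matches on the 2 strands may overlap, so a single CCAATTGG, as in PTTG1 and HMMR, counts as 2 matches. In the shorter stretch from 100 bases before to 50 after the start, TTTGAA was in 51.0% of the genes' windows against 6.84% of all, and CCAAT in 59.2% against 21.3%. Other spellings of the CHR were not searched, and a match is a run of letters, not a measured binding site. Windows are shown for 5 of the genes that carry the rapamycin results below, as the 150 bases before the start, 5′ to 3′ on the gene's strand. Capitals mark CCAAT, its reverse complement ATTGG, and TTTGAA. The windows lie at chr4:121823884-121824033 on the minus strand (CCNA2), and on the plus strand at chr5:69167000-69167149 (CCNB1), chr5:138178962-138179111 (KIF20A), chr5:160421705-160421854 (PTTG1, the first of its 2 listed starts) and chr5:163460482-163460631 (HMMR).
CCNA2: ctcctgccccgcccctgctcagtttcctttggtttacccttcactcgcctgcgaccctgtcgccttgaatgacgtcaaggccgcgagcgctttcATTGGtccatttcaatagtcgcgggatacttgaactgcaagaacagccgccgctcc
CCNB1: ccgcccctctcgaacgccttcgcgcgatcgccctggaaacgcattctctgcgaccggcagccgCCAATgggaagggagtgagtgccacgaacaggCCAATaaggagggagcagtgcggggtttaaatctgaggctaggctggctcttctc
KIF20A: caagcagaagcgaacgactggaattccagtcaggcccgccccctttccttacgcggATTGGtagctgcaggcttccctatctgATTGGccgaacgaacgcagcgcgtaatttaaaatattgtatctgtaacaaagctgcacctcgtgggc
PTTG1: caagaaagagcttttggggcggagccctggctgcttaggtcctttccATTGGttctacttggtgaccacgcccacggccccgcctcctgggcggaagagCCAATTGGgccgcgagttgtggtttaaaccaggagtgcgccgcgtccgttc
HMMR: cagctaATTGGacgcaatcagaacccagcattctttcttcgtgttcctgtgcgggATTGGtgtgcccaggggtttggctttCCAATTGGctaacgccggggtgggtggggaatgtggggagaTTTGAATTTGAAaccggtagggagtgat
Each of these windows held at least 1 CCAAT match, but genes with rapamycin results that are not shown differed. The full NDC80 window held no CCAAT match and 1 TTTGAA match. CDC25B and CDC25C each had listed starts without a CCAAT match and others with at least 1. HMMR also had 2 adjoining TTTGAA matches, at -28 and -22 from the start, and the other 4 windows had none.

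Levels across genes were compared per kilobase of annotated exon, as the mean over all 9 libraries. The highest were MYBL2 at 82.7 ± 5.35 CPM per kb (SD, n = 9), TPX2 (a factor that activates Aurora A at the spindle) at 77.4 ± 5.13, CCNA2 (cyclin A2) at 76.5 ± 6.34, CDC20 (the APC/C activator) at 72.8 ± 4.80 and TOP2A (topoisomerase II alpha) at 72.7 ± 5.01. Neighbours in this order differed by less than 1 SD, apart from the first and second, whose gap was close to their SDs. CCNB1 (cyclin B1) followed at 62.0 ± 6.23 and CDK1 at 54.3 ± 4.68. Near the bottom stood FOXM1 at 9.98 ± 0.925, the separase gene ESPL1 at 9.59 ± 0.768, CDC25C at 9.37 ± 1.42 and the kinesin gene CENPE at 8.65 ± 1.01, whose spreads overlap. UBE2C, which encodes the E2 enzyme of the APC/C, was far below all others at 0.564 ± 0.328 CPM per kb. Its counts were 14, 20 and 16 with the HBG1 sgRNA in DMSO, 20, 9 and 5 in rapamycin, 11 in the non-targeting DMSO library and 23 and 35 in its rapamycin libraries. No value of UBE2C supports a comparison at such counts, and why they were so low was not tested. Whether the way this gene was counted (annotation, shared copies) lowered them could not be settled from the sources used here. The other 45 genes lay between 23.8 and 528 CPM in every library. Relative to its mean, PRC1 varied least over the 9 libraries (coefficient of variation 3.81%), and NDC80 (17.6%) and MKI67 (17.1%) varied most among those 45.

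**Figure D1:**
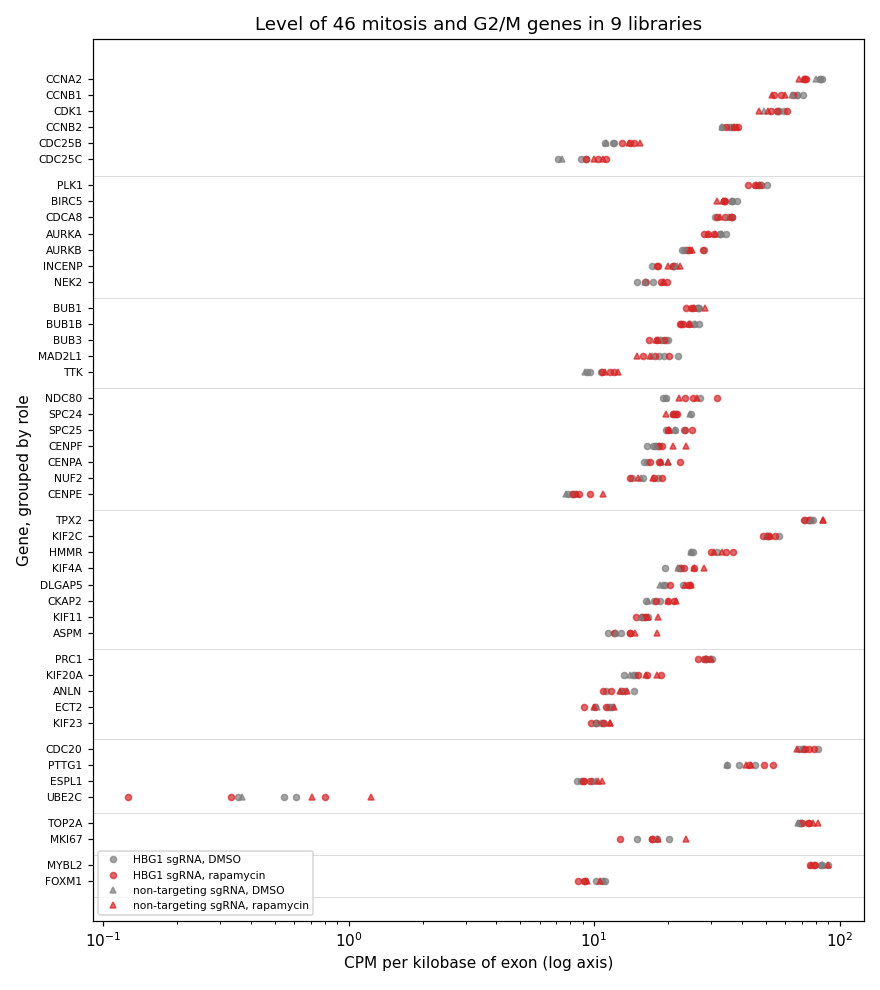
Level of each of the 46 genes in every library, in CPM per kilobase of exon on a log axis, grouped by role. Points are single libraries, grey for DMSO and red for rapamycin, circles for the HBG1 sgRNA and triangles for the non-targeting sgRNA. UBE2C lies at 0.564 on average, and the next lowest of the other 45 genes, CENPE, at 8.65.

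The first comparison asked what 24 h of rapamycin did to these transcripts in cells with the HBG1 sgRNA. The changes of the 46 genes were small and lay in both directions: 22 were above 0 and 24 below, with a median log2 change of -0.02 (0.02 over all genes tested). With upper quartile scaling 20 were below 0, as CDK1, CDCA8, KIF2C and TPX2 crossed it, and with library totals CDCA8 did. Leaving UBE2C aside, fitted changes ran from -0.25 (FOXM1) to 0.31 (HMMR), or from 15.8% lower to 23.9% higher. None of the 46 passed edgeR's quasi-likelihood test at a Benjamini-Hochberg adjusted p of 0.05, where 6.80% of all genes tested did (2.75% higher, 4.05% lower), and 12 were under 0.05 before adjustment (26.1%, against 20.8% of all genes). The smallest adjusted p was 0.0624, for CCNA2. DESeq2 called CCNA2 and HMMR, and limma voom called CCNA2. The 95% interval of the change lay within 1.25-fold either way for 24 of the 46 genes and within 1.5-fold for 45, so changes beyond 1.5-fold were outside the interval for every gene but UBE2C.

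Deviations of same-numbered libraries from their group means correlated at 0.550 for replicate 1, but only at 0.277 and 0.235 for replicates 2 and 3. Crossing the numbers of replicates 2 and 3 gave 0.254 and 0.190, so the data hardly separate these 2 pairs. With this limit, the change was also read within pairs, with the replicate number as a block on the 6 HBG1 sgRNA libraries. With this block 10 of the 46 passed (21.7%), 7 higher and 3 lower, where 17.1% of the genes tested in it passed, 7.43% higher and 9.62% lower. The 46 genes had a median level of 87.9 CPM, against 7.19 CPM for all genes tested in the main fit. Shares over all genes, here and in the other comparisons, are not matched for level, and the part of level in them was not tested. The higher genes were HMMR, CDC25C, PTTG1, NDC80, KIF20A, CDC25B and TTK, and the lower genes were CCNA2, CCNB1 and FOXM1. Both directions occurred within 1 role: CCNA2 and CCNB1 were lower and CDC25B and CDC25C higher, while CCNB2 (cyclin B2) lay above 0 and did not pass. None of these 10 genes passed on the same 6 libraries without the block. Leaving out pair 1, the pair that stood apart, left 4 calls (HMMR, NDC80 and PTTG1 higher, CCNB1 lower), leaving out pair 3 left 4 (CDC25C, NDC80 and PTTG1 higher, MAD2L1 lower), and leaving out pair 2 gave 12. Those 12 included genes outside the 10, while CCNB1 (adjusted p = 0.067) and CDC25C (adjusted p = 0.0811) were lost. NDC80 and PTTG1 passed in each of these 3 fits. Over all genes, the fits called 2726 without pair 1, 3199 without pair 2 and 1831 without pair 3, against 3441 with all pairs. With upper quartile scaling, which shifts all changes up, the 3 lower calls were lost (adjusted p 0.0526 for CCNA2, 0.0586 for CCNB1 and 0.0659 for FOXM1) and CKAP2, ASPM and DLGAP5 passed as higher. The sign of each of the 10 changes was the same in all 26 alternative fits. These fits share most of their libraries with the fit that picked the 10, so a constant sign is no separate evidence.

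**Figure D2:**
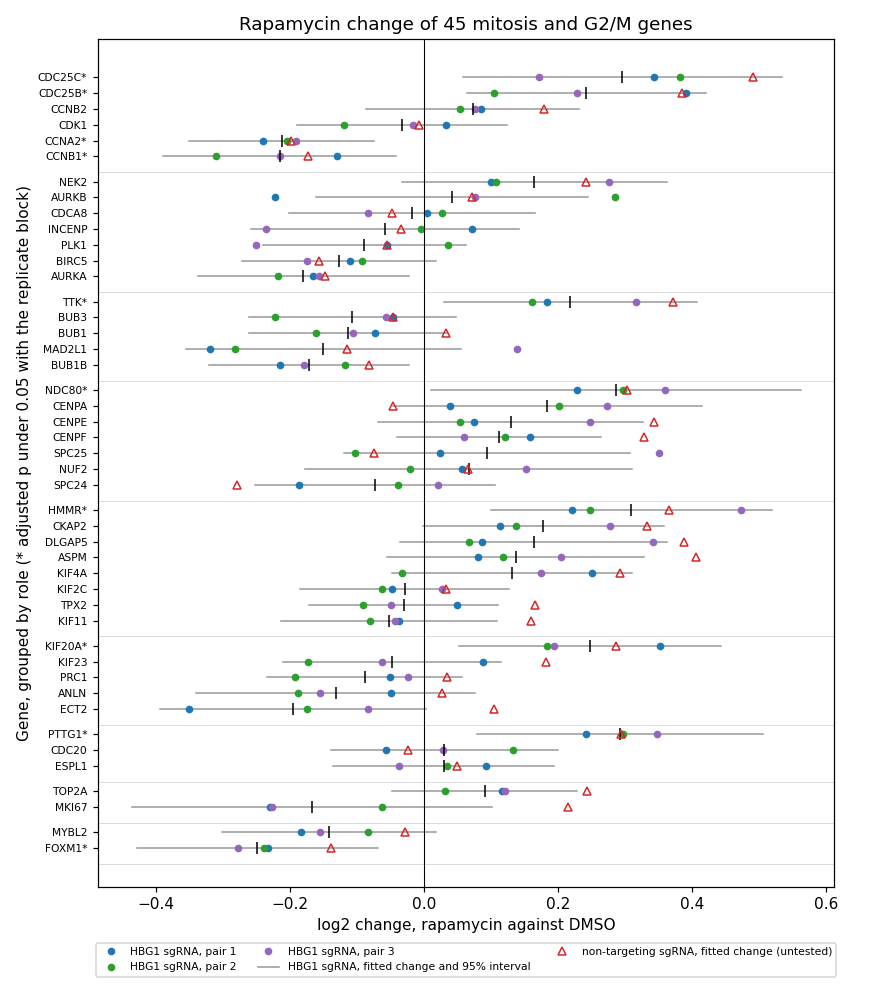
Change with rapamycin of 45 genes (UBE2C left out) on a log2 scale, grouped by role. Dots are the 3 HBG1 sgRNA pairs, ticks with grey lines the fitted change with its 95% interval, and triangles the fitted non-targeting change, which has no test; asterisks mark the 10 genes that passed with the replicate block.

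Among the cyclins, CDK1 and its phosphatases, CCNA2 (ENSG00000145386, chr4:121816444-121823933) was the most even. It stood at 238, 232 and 233 CPM in DMSO replicates 1, 2 and 3 and at 201, 202 and 204 CPM in rapamycin. All rapamycin libraries were below all DMSO libraries, and the gap was larger than the spread within either group: the log2 change was -0.21 (SE 0.07, adjusted p = 0.0624), and the adjusted p was 0.0153 with the block. Without pair 1 the blocked change was -0.19 and did not pass (adjusted p = 0.0905). CCNB1 (chr5:69167010-69178245) read 181, 171 and 172 CPM in DMSO and 166, 138 and 148 CPM in rapamycin. Its ranges did not overlap either, with a change of -0.22 (SE 0.08, adjusted p = 0.135, with the block 0.0188). The blocked change was -0.26 without pair 1 (adjusted p = 0.0188). It did not pass without pair 2 (-0.17, adjusted p = 0.067) or without pair 3 (-0.22, adjusted p = 0.1). Unblocked, the change ran from -0.16 without rapamycin replicate 2 (adjusted p = 0.314) to -0.29 without rapamycin replicate 1 (adjusted p = 0.0325). CDK1, their kinase partner, was at 234, 224 and 221 CPM in DMSO and 239, 206 and 219 CPM in rapamycin, which overlap, with a change of -0.03 (SE 0.07).

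CDC25B and CDC25C, the phosphatases that remove the inhibitory phosphates from CDK1, lay the other way. CDC25B (chr20:3786772-3806121) was at 47.7, 52.2 and 51.4 CPM in DMSO and 62.6, 56.1 and 60.3 CPM in rapamycin. CDC25C (chr5:138285265-138338355), lowest of its role per kb, was at 29.5, 23.8 and 30.8 CPM in DMSO and 37.4, 31.1 and 34.7 CPM in rapamycin. In both genes every rapamycin library exceeded every DMSO library, though for CDC25C the nearest values (30.8 and 31.1) almost met. The changes were 0.24 (SE 0.08, adjusted p = 0.101, with the block 0.0274) and 0.30 (SE 0.11, adjusted p = 0.134, with the block 0.0203). Without pair 1 neither passed with the block, at 0.17 (adjusted p = 0.268) and 0.28 (adjusted p = 0.103), and without DMSO replicate 2 the unblocked change of CDC25C was 0.19 (adjusted p = 0.438). CCNB2 had a log2 change of 0.07 and did not pass.

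Of the 7 Polo, Aurora and NEK kinases and chromosomal passengers, 5 changes were below 0 and none passed in either fit (median -0.06). PLK1, the Polo kinase that promotes mitotic entry and the highest of the group per kb, was at 223, 222 and 241 CPM in DMSO and 214, 227 and 202 CPM in rapamycin. AURKA (Aurora A, of the centrosome) was at 101, 95.3 and 95.1 CPM in DMSO and 90.0, 82.0 and 85.3 CPM in rapamycin. PLK1 overlapped between the groups and AURKA did not, but AURKA missed the threshold with a change of -0.18 (SE 0.07, adjusted p = 0.171, with the block 0.0621). NEK2, a centrosome kinase, was at 54.0, 46.3 and 50.4 CPM in DMSO and 57.9, 49.9 and 61.1 CPM in rapamycin, an overlap, with the largest positive change of the group at 0.17 (SE 0.09). AURKB, INCENP, BIRC5 (survivin) and CDCA8 (borealin), which form the chromosomal passenger complex at centromeres, had changes from -0.13 to 0.04, and of these only BIRC5 had ranges that did not overlap.

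In the spindle checkpoint, 4 of 5 changes were below 0 (median -0.11) and the kinase gene TTK (MPS1) stood above. TTK (chr6:80003887-80042527) was at 48.8, 44.3 and 42.8 CPM in DMSO and 55.4, 49.5 and 53.3 CPM in rapamycin. Its ranges did not overlap by a small margin, the log2 change was 0.22 (SE 0.09, adjusted p = 0.167), and it passed as higher with the block (adjusted p = 0.0393) but not without pair 1 (0.24, adjusted p = 0.0986). BUB1B, which encodes the checkpoint protein BUBR1, was at 119.6, 109 and 114 CPM in DMSO and 103, 101 and 101 CPM in rapamycin. BUB1, another kinase of the checkpoint, was at 160.0, 160.4 and 162 CPM in DMSO and 152, 143 and 150.2 CPM in rapamycin. Both were lower in all 3 rapamycin libraries and neither passed: the changes were -0.17 (adjusted p = 0.169, with the block 0.0708) and -0.11 (adjusted p = 0.392). MAD2L1 and BUB3, which bind within the checkpoint complex, had changes of -0.15 and -0.11 with overlapping ranges.

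Of the 7 kinetochore and centromere genes, 6 had changes above 0 (median 0.11), against 12389 of 23675 over all genes tested, and 1 passed with the block. This lean did not extend to a further list of 31 kinetochore and centromere genes, with 14 above 0 and 17 below (median -0.04). With the non-targeting sgRNA and its single DMSO library, 4 of the 7 were above 0 and 3 below. NDC80 (chr18:2571511-2616635), which encodes the microtubule-binding subunit HEC1, was at 97.3, 68.9 and 70.7 CPM in DMSO and 114, 84.7 and 90.8 CPM in rapamycin. Replicate 1 was the highest library in each group, so the ranges overlap although rapamycin was higher in 3 of 3 pairs, by 0.23, 0.30 and 0.36 on the log2 scale. The change of 0.29 had an SE of 0.13 and an adjusted p of 0.221 without the block, and an SE of 0.06 and an adjusted p of 0.00254 with it. The blocked change was 0.33 without pair 1 (adjusted p = 0.00401). Unblocked, it was 0.47 without DMSO replicate 1 (adjusted p = 0.0225) and 0.15 without rapamycin replicate 1 (adjusted p = 0.535). SPC24, a subunit of the same complex, was at 70.3, 61.0 and 59.7 CPM in DMSO and 61.8, 59.4 and 60.5 CPM in rapamycin, with the lowest change of the role at -0.07 (SE 0.08). CENPE, a kinesin of the kinetochore, was at 73.6, 79.2 and 76.4 CPM in DMSO and 77.5, 82.2 and 90.8 CPM in rapamycin. Both overlapped between the groups. CENPF had ranges that did not overlap, 191 to 207 CPM in DMSO and 213 to 221 CPM in rapamycin, with a change of 0.11 (adjusted p = 0.411). NUF2, SPC25 and CENPA (the centromeric histone H3 variant) had changes from 0.07 to 0.18.

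Spindle motors and microtubule factors held the largest positive change of the set. HMMR (chr5:163460203-163491945), whose product binds spindle microtubules and hyaluronan, was at 124, 99.4 and 97.4 CPM in DMSO and 145, 118 and 135 CPM in rapamycin. DMSO replicate 1 lay above rapamycin replicate 2, so the ranges overlap, while the pairs differed by 0.22, 0.25 and 0.47. The log2 change was 0.31 (SE 0.10, adjusted p = 0.0740), and with the block it was 0.32 (SE 0.06, adjusted p = 0.00177). Without pair 1 the blocked change was 0.36 (adjusted p = 0.000616). Without pair 3, the pair with the largest difference, it was 0.24 and did not pass (adjusted p = 0.0602). The unblocked change was 0.43 without DMSO replicate 1 (adjusted p = 0.0102) and 0.24 without rapamycin replicate 1 (adjusted p = 0.161). TPX2, highest of the role per kb, was at 261, 275 and 281 CPM in DMSO and 270.2, 258 and 272 CPM in rapamycin. KIF11, the motor that pushes spindle poles apart, was at 78.2, 76.1 and 80.7 CPM in DMSO and 76.2, 72.0 and 78.4 CPM in rapamycin, and ASPM, a spindle pole protein, at 124, 140.3 and 133 CPM against 131, 152 and 153 CPM. All 3 genes overlapped, with changes of -0.03, -0.05 and 0.14. KIF2C, KIF4A, CKAP2 and DLGAP5 had changes from -0.03 to 0.18, so 5 of the 8 were above 0 (median 0.13).

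In the central spindle and cytokinesis, KIF20A was separate from the rest. KIF20A (chr5:138178719-138187715), a kinesin that brings the passenger complex to the central spindle, was at 58.2, 52.5 and 57.1 CPM in DMSO and 74.4, 59.6 and 65.3 CPM in rapamycin. The ranges did not overlap, and the change of 0.25 (SE 0.09, adjusted p = 0.127) passed with the block (adjusted p = 0.0176). It did not pass without pair 1 (0.19, adjusted p = 0.184), and the unblocked change was 0.16 without rapamycin replicate 1 (adjusted p = 0.34). The other 4 genes had changes below 0 and none passed. ECT2, the exchange factor that activates RhoA for the cleavage furrow, was at 64.0, 62.4 and 64.8 CPM in DMSO and 50.2, 55.3 and 61.2 CPM in rapamycin, with a change of -0.20 (SE 0.09, adjusted p = 0.246). Its rapamycin libraries all lay lower, though unevenly, with replicate 3 near the DMSO level. PRC1, which bundles central spindle microtubules, was at 163, 168 and 158 CPM in DMSO and 158, 147 and 156 CPM in rapamycin, where the nearest libraries of the groups almost met. KIF23, the motor of centralspindlin, was at 67.1, 71.9 and 70.0 CPM in DMSO and 71.3, 63.8 and 67.1 CPM in rapamycin, an overlap, with a change of -0.05, and PRC1 had one of -0.09.

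Among regulators of anaphase, PTTG1 (chr5:160421822-160428744), which encodes securin, was at 91.1, 70.1 and 78.2 CPM in DMSO and 108, 86.1 and 99.5 CPM in rapamycin. As with NDC80, replicate 1 was highest in both groups and the ranges overlap, while all 3 pairs were higher in rapamycin, by 0.24, 0.30 and 0.35. The change was 0.29 (SE 0.10, adjusted p = 0.0984), and with the block 0.30 (SE 0.06, adjusted p = 0.00236). Without pair 1 the blocked change was 0.33 (adjusted p = 0.00448). Unblocked, leaving out DMSO replicate 1 gave 0.40 (adjusted p = 0.0224) and leaving out DMSO replicate 2 gave 0.21 (adjusted p = 0.352). CDC20 was at 167, 139 and 144 CPM in DMSO and 160.1, 153 and 147 CPM in rapamycin, which overlap (0.03, SE 0.08), and ESPL1, which encodes separase, the protease securin holds in check, had a change of 0.03 that did not pass either. TOP2A, which untangles sister chromosomes, was at 447, 443 and 439.7 CPM in DMSO and 485, 453 and 478 CPM in rapamycin. Its ranges did not overlap, but the change of 0.09 (SE 0.06) had an adjusted p of 0.473. MKI67, which encodes the proliferation antigen Ki-67, was at 192, 231 and 259 CPM in DMSO and 164, 221 and 221 CPM in rapamycin. Here replicate 1 was the lowest library in both groups, and the change of -0.17 (SE 0.13, adjusted p = 0.5) did not pass with the block (adjusted p = 0.0600).

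Both transcription factors were below their DMSO levels in all 3 rapamycin libraries. FOXM1 (chr12:2857681-2877155) was at 49.6, 52.7 and 54.4 CPM in DMSO and 42.2, 44.7 and 44.9 CPM in rapamycin. Every pair was lower by a like amount, -0.23, -0.24 and -0.28, and the change of -0.25 (SE 0.08, adjusted p = 0.0951) passed as lower with the block (adjusted p = 0.0268), though not without pair 1 (-0.25, adjusted p = 0.0752). MYBL2 was at 250.3, 233 and 235 CPM in DMSO and 220.5, 219 and 211 CPM in rapamycin, without overlap, with a change of -0.14 (SE 0.08, adjusted p = 0.305, with the block 0.113). Over the whole set, ranges did not overlap for 6 genes in the higher direction (13.0%, against 12.2% of all genes) and for 10 in the lower direction (21.7%, against 13.1%). Rapamycin was higher in 3 of 3 pairs for 16 genes (34.8%, against 22.6% of all genes) and lower in 3 of 3 for 14 (30.4%, against 22.4%).

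Exons of 16 of the 46 genes share bases with another annotated gene, and the strand setting of the counting is not given in the sources used here, so reads in these stretches may come from either gene. The largest shares were 15.9% of FOXM1 exon bases (with ITFG2), 11.6% of PLK1, 10.2% of BUB1B (with BUB1B-PAK6, on the same strand), 9.08% of CCNA2 (with EXOSC9) and 8.78% of CDC25C (with FAM53C). HMMR shared 2.87% and KIF20A 3.3% with BRD8. CCNB1, CDC25B, TTK, NDC80 and PTTG1 shared none. Over all 9 libraries, the copies PTTG3P and PTTG2 of PTTG1 had 2 counts and none, while AURKAP1 had 551, CDC20P1 428 and NEK2P4 335. UBE2CP2 had 76 and UBE2CP1 9, beside 5 to 35 counts per library for UBE2C itself. How reads matching several copies were counted is not given in the sources used here.

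**Figure D3:**
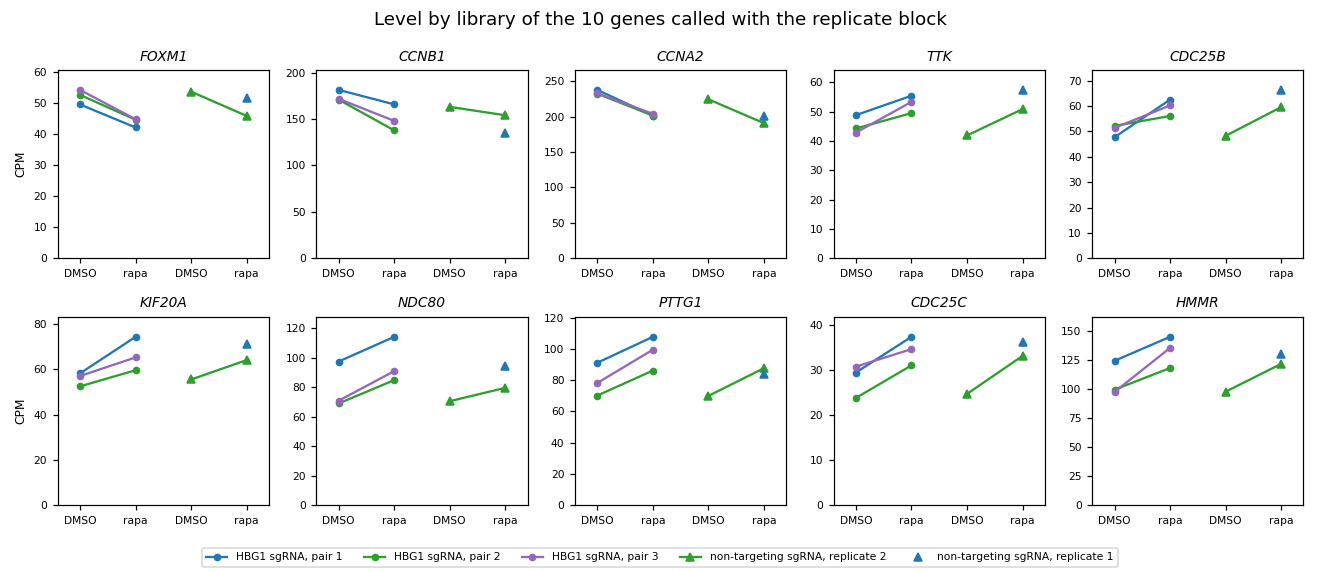
CPM in every library of the 10 genes that passed with the replicate block, each on an axis from 0. Lines join same-numbered DMSO and rapamycin (rapa) libraries, circles are HBG1 sgRNA and triangles non-targeting sgRNA libraries; the HBG1 sgRNA lines slope down in FOXM1, CCNB1 and CCNA2 and up in the other 7 genes.

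The non-targeting sgRNA gave a second set of rapamycin changes from other libraries, scaled in the same fit, but with a single DMSO library it has no test. CCNA2 was at 224 CPM in its DMSO library and 200.4 and 191 CPM in rapamycin, CCNB1 at 163 against 135 and 154 CPM, and FOXM1 at 53.8 against 51.7 and 45.9 CPM. CDC25B was at 48.3 CPM in DMSO and 66.4 and 59.6 CPM in rapamycin, CDC25C at 24.7 against 36.3 and 33.2 CPM, and TTK at 41.9 against 57.4 and 50.9 CPM. In each of these 6 genes both rapamycin libraries lay on the same side of the DMSO library as with the HBG1 sgRNA. HMMR was at 97.7 CPM against 130.1 and 122 CPM, NDC80 at 70.4 against 94.2 and 79.5 CPM, KIF20A at 55.5 against 71.3 and 64.1 CPM, and PTTG1 at 69.9 against 83.7 and 87.7 CPM. All 10 genes thus had the same sign with both guides, with non-targeting log2 changes from -0.20 (CCNA2) to 0.49 (CDC25C). Of all genes that passed with the block, 94.8% had the same sign, so this share is not particular to these 10. Of the 46 genes, 33 had the same sign (71.7%, against 68.0% of all genes tested).

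The median change of the 46 with the non-targeting sgRNA was 0.07, with 29 above 0 and 17 below, against a median of 0.03 and 12574 of 23675 above 0 for all genes tested. All of these values rest on the single DMSO library. All 8 spindle motors and microtubule factors were above 0 (median 0.31), as were all 5 central spindle and cytokinesis genes (median 0.10). The 13 genes of opposite sign were BUB1, SPC25, CENPA, KIF11, KIF2C, TPX2, KIF23, PRC1, ECT2, ANLN, CDC20, UBE2C and MKI67, and 10 of these were above 0 with the non-targeting sgRNA. Whether any gene responded differently with the 2 guides was tested by the interaction, and none of the 46 passed (0.00422% of all genes did), none had an unadjusted p under 0.05 (2.86% of all genes), and DESeq2 and limma voom called none. With the block within each guide none passed either (0.0211% of all genes did). With UBE2C set aside, the differences of log2 changes ran from -0.38 (MKI67, SE 0.23) to 0.23 (CENPA, SE 0.20). The intervals are wide: they lay within 1.25-fold for 6 genes and within 1.5-fold for 39.

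**Figure D4:**
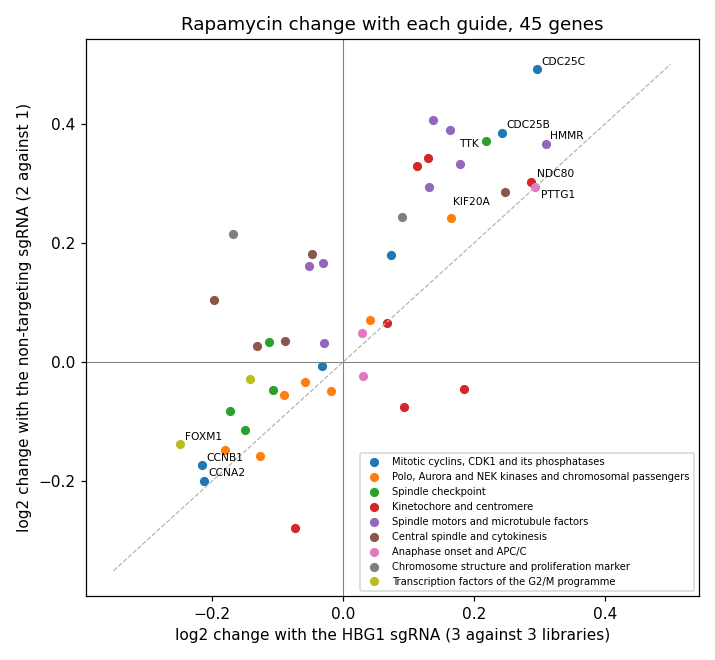
Log2 change with rapamycin with the non-targeting sgRNA (y) against that with the HBG1 sgRNA (x) for 45 genes, coloured by role; the dashed line marks equal changes. The 10 labelled genes lie in the lower left and upper right quadrants, and 39 of the 46 genes have a higher y than x when UBE2C, not drawn, is counted. The median difference, x minus y, was -0.08 for the 46 genes and -0.02 over all genes tested. All y values share the single non-targeting DMSO library, so the points are not separate observations.

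The last comparison set the guides side by side under rapamycin, 3 HBG1 sgRNA libraries against 2 non-targeting libraries. None of the 46 genes passed edgeR's quasi-likelihood test, where 0.0296% of all genes (7 genes) did, and the smallest adjusted p was 0.773. With the replicate number as a block on all 9 libraries none passed either (0.0887% of all genes did). With unadjusted p under 0.05 there were 6 genes (13.0%, against 6.27% of all genes), and DESeq2 and limma voom called none. Of these 6, CDK1 was higher with the HBG1 sgRNA, at 239, 206 and 219 CPM against 200.2 and 185 CPM (log2 difference 0.20, SE 0.08). CENPF was lower, at 213, 221 and 216 CPM against 278 and 245 CPM (-0.27, SE 0.08), as were ASPM, at 131, 152 and 153 CPM against 196 and 159.6 CPM (-0.29, SE 0.10), and TPX2, at 270.2, 258 and 272 CPM against 310.0 and 308 CPM (-0.21, SE 0.07). In these 4 genes, as in MKI67 and ESPL1, the guides' libraries did not overlap, but all 6 were picked by p-values from the same libraries. MKI67 was at 164, 221 and 221 CPM against 303 and 233 CPM (-0.41, SE 0.14), where the gap between 221 and 233 CPM is smaller than the spread within either guide, and ESPL1 was at 80.8, 80.4 and 85.3 CPM against 95.7 and 92.3 CPM (-0.19, SE 0.09). MKI67 passed only in the fit without a low-count filter (adjusted p = 0.00419). Differences were below 0 for 31 of the 46 genes (median -0.06), and ranges did not overlap for 13 genes in the lower direction (28.3%, against 11.3% of all genes) and 4 in the higher (8.70%, against 11.2%). The summed level of the 46 genes was highest in non-targeting rapamycin replicate 1 (5841 CPM, against 5231 to 5513 CPM in the other 8 libraries), and the share of mitochondrial counts was highest in the non-targeting rapamycin libraries (6.5% and 6.29%, against 5.02% to 5.98%). Their part in these differences was not tested.

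Genes of neighbouring mitotic complexes were read from 6 further lists of 117 genes, all tested. With rapamycin and the HBG1 sgRNA, 1 passed as higher (0.855%, against 2.75% of all genes) and 6 as lower (5.13%, against 4.05%), with a median of -0.05. ANAPC1, the largest APC/C subunit, fell by 0.50 on the log2 scale (SE 0.08, adjusted p = 0.00181), from 141, 164 and 161 CPM to 104, 114 and 113 CPM. CDC25A, the CDC25 phosphatase that also acts at S phase entry, fell by 0.45 (SE 0.09, adjusted p = 0.00946), from 66.2, 76.7 and 69.2 CPM to 45.5, 54.5 and 55.4 CPM. CDC25A thus fell, while the fitted changes of CDC25B and CDC25C were above 0. CDCA5 (sororin, which protects cohesin) fell by 0.40, SMC3 (a cohesin subunit) by 0.30, ARHGAP11A by 0.36 and E2F4 (a DREAM subunit) by 0.37. The centromere gene CENPQ rose by 0.52 (SE 0.13, adjusted p = 0.0226), from 13.3, 13.2 and 11.3 CPM to 19.6, 18.0 and 16.8 CPM. No DMSO range of these 7 genes overlapped its rapamycin range, but they were picked by a test on the same libraries, so this is no separate evidence. Among the 117, ranges did not overlap for 9 genes in the higher direction and 28 in the lower. Over all genes tested the shares were 12.2% and 13.1%. With the block 3 of the 117 were higher (2.56%, against 7.43% of genes) and 14 lower (12%, against 9.62%).

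The comparison list of 35 G1/S and replication genes, which act before the mitotic set in the cycle, held 4 lower (11.4%, against 4.05% of all genes) and 1 higher (2.86%, against 2.75%). Its median was -0.12, with 28 of 35 changes below 0, against 24 of 46 in the mitotic set. MCM10, needed to start replication forks, fell by 0.48 (SE 0.08, adjusted p = 0.00156), from 73.8, 75.7 and 75.0 CPM to 52.0, 55.0 and 54.3 CPM. MCM3 and MCM4, subunits of the replicative helicase, fell by 0.29 and 0.25, and the clamp loader gene RFC3 by 0.31, while the primase gene PRIM1 rose by 0.35. With the block 14 of 35 were lower (40.0%, against 9.62% of genes) and 2 higher (5.71%, against 7.43%). The difference between the 2 lists was not tested.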

How the data were processed

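Per the labels' protocols, poly-T selected RNA was made into libraries with a NEBNext Ultra kit. The authors deposited their read counts, whole numbers by Ensembl ID, in 1 table with a column for each library. The submitters' processing notes name STAR 2.7.3a, featureCounts, Subread 2.0.0, R 4.1.2, limma 3.34.9, edgeR 3.24.0 and the builds GRCh38 and hg38, without roles. Annotation release and strand setting are not given in the sources used here. Symbols, exon lengths and GRCh38 positions came from GENCODE 29, which held 58039 of 58347 IDs.

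Group and replicate of each library were read from its title; other libraries were not analysed here. Genes were filtered with filterByExpr (minimum count 10), scaled with TMM (factors 0.977 to 1.02) and fitted with edgeR 4.0.16 (glmQLFit, glmQLFTest; R 4.3.3) on all 9 libraries with 1 mean per group. Adjusted p-values are Benjamini-Hochberg values over 23675 genes, called under 0.05. Levels are TMM-scaled CPM, and 95% intervals come from the fitted SE. Alternatives used DESeq2 1.42.0, limma 3.58.1 voom, other scalings and filters, left-out libraries and a replicate block.

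Whether equal numbers pair libraries was checked over the 11668 genes whose mean log2 CPM was 3 or more. Deviations from group means correlated at 0.550, 0.277 and 0.235 for replicates 1, 2 and 3, each above 0.1. Replicates 2 and 3 were hardly separated, since crossing their numbers gave 0.254 and 0.190. Blocked values are therefore printed where they change a call. No 2 replicates agreed within sampling noise (chi-square per gene 4.64 to 17.1).

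The members and all gene lists were chosen with earlier results of these data known. Genes printed by library are, in each role, those with the highest and lowest level per kb and the highest and lowest change, and those called with the block on 6 libraries, with CDK1, CENPF and genes under an unadjusted p of 0.05 between guides added after their values were seen. A further erythroid marker of the list is not reported here.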

Additional observations from a re-analysis of the deposited data

How the results depend on the processing

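With rapamycin and the HBG1 sgRNA, the count of 0 members called became 1 with upper quartile scaling or library totals (HMMR), 3 with no low-count filter (NDC80, HMMR, PTTG1), 2 with DESeq2 and 1 with limma voom, and ranged from 0 to 3 without 1 library. The 3 came without DMSO replicate 1 (NDC80, HMMR, PTTG1), and leaving out rapamycin replicate 1 or 2 called CCNB1 or HMMR alone. With the replicate block it was 10 on 6 libraries, 3 on all 9 (NDC80, HMMR, PTTG1), 6 with DESeq2, 4, 12 and 4 without pair 1, 2 or 3, and 10, 10 and 11 with RLE, upper quartile and total scaling. Blocked DESeq2, left-out pairs and blocked scalings were chosen after seeing the data. Genes called over the whole table (1609) ranged from 664 to 1731 without 1 library, lowest without DMSO replicate 2 and at 749 and 693 without DMSO or rapamycin replicate 3. Their number with the block was 3441, with blocked DESeq2 2530, without pair 1, 2 or 3 it was 2726, 3199 or 1831, and with the blocked scalings 3472, 3429 and 3280. The members' median log2 change of -0.02 moved to 0.0148 with upper quartile scaling, 0.0217 without pair 3 and 0.0268 with blocked upper quartile scaling, and ranged from -0.0315 to 0.0147 without 1 library. Upper quartile scaling put 20 members below 0 in place of 24. Between guides, 7 genes became 91 without a filter, with 1 member (MKI67), 13 with DESeq2 and 21 with the block on 9 libraries, and 3 to 8 without 1 library (3 without non-targeting replicate 1). For the interaction, 1 gene became 0 with library totals, a minimum count of 50 or DESeq2, 8 without a filter, 3 with voom, 3 with the block on 9 libraries and 5 with it within guides, and 0 to 4 without 1 library, with 0 members in each. The block changed no other call of a member. No called change of a member took the other sign, but 36 of 1195 refitted rapamycin changes did, in 13 members that passed in no fit; UBE2C aside, their changes as reported were at most 0.09 in size. Low counts limit UBE2C, at 5 to 35 per library, and the single non-targeting DMSO library limits every interaction.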
